A study of Caenorhabditis elegans with 23 samples.

Results

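Levels of mRNA from 8 genes of *Caenorhabditis elegans* were examined across strains that lack, carry or have regained the gene *sid-1*. The 8 genes are *T10D4.6*, *F47D12.9*, *C07G1.7*, *ZK177.9*, *Y48G1BL.5*, *Y20F4.4*, *C27C7.1* and *F15B9.10*, out of 21982 genes measured. They were picked by name because their levels differed between animals with a deletion of *sid-1*, *sid-1(jam113[deletion])*, and the wild type cultured alongside. That comparison therefore describes how the genes were picked and is given without a test. The study lists all 8 as changed in *jam113* and not in *sid-1(jam80[nonsense])*, so the choice also bears on the comparison of *jam80* with wild type. All transcripts whose names begin with one of the 8 sequence names were found in all 23 libraries, 16 transcripts in total. The question was whether each gene varied with the loss of *sid-1* or only in the strain that carries *jam113*.

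SID-1 is a transmembrane protein that imports double-stranded RNA (dsRNA) into cells, and it is needed for RNA interference (RNAi) to spread between tissues and to progeny. Imported dsRNA is processed by Dicer into small RNAs that Argonaute proteins use to silence matching genes. RNA-dependent RNA polymerases amplify the response, and in the germline the silenced state can be inherited. Levels of some genes can also differ between isolates of one strain that were propagated apart. None of the 8 genes carries a functional name in the annotation used here. Of the 8, 7 are annotated as protein-coding and *Y48G1BL.5* is annotated as a pseudogene.

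The genes lie on 5 chromosomes of the WBcel235 assembly. *T10D4.6* (WBGene00020408) spans II:3119332-3123183 on the plus strand, and *ZK177.9* (WBGene00022674) spans II:5517157-5517743 on the minus strand. *F47D12.9* (WBGene00018564) spans III:6299330-6303380 on the minus strand and has 6 transcripts in the files. *C07G1.7* (WBGene00015573) spans IV:8210906-8211847 on the minus strand, inside the span of *svh-1* on the opposite strand. Chromosome I holds *Y48G1BL.5* (WBGene00021664) at 219735-221575 and *Y20F4.4* (WBGene00021239) at 2034322-2043805, both on the minus strand, and *C27C7.1* (WBGene00007766) at 11439289-11440709 on the plus strand. *F15B9.10* (WBGene00045418) spans V:13006970-13008925 on the minus strand. *T10D4.6*, *Y20F4.4* and *F15B9.10* have 2 transcripts each in the files, and the other 4 genes have 1 each.

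PolyA+ RNA of whole mixed-stage animals was sequenced in 3 sets, each with its own cultures of the N2 wild type. The deletion set held *sid-1(jam113[deletion])* (strain AMJ1324, 1 isolate of a genome-edited deletion of the whole *sid-1* coding sequence, made with a co-injected marker plasmid, pRF4) and wild type, 3 libraries each. The nonsense set held *sid-1(jam80[nonsense])* (AMJ1159, an edited stop codon like that of *qt9* with an added missense change, made with *dpy-10* as co-edited marker), *sid-1(jam86[revertant])* (AMJ1217, made from AMJ1159 by editing the stop back to wild-type sequence) and wild type, 3 libraries each. The older-allele set held *sid-1(qt9[nonsense])* (HC196), *sid-1(tm2700[deletion])* (FX02700), *sid-1(tm2700[deletion]); tmIs1005[sid-1(+)]* (FX15992, *tm2700* with an integrated transgene that carries *sid-1* and a *vps-45* minigene, here called the rescued strain) and wild type, 2 libraries each. Each genotype was represented by 1 strain, so the effects of an allele and of its isolate cannot be told apart. The deletion and nonsense sets were grown on plates and read from both ends with a stranded kit. The older-allele libraries were single reads from an unstranded kit, and the labels give liquid culture where the methods describe plates. The labels do not say whether replicates came from separate cultures, and the methods call them biological replicates.

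Levels are given as CPM, the estimated count of a gene per 1000000 counts of its library after TMM scaling over all 23 libraries, and changes as log2 fold changes with their standard error (SE). Total estimated counts ranged from 35320382 to 79287591 in the plate-grown sets and from 22147631 to 26396892 in the older-allele set. The labels were checked with *sid-1* itself, which lay between 1.18 and 1.41 CPM in *jam113* and between 48.6 and 53.4 CPM in its wild type. *sid-1* was also lower in *jam80* (19.5 to 21.8 CPM) and near wild type in *jam86* (32.6 to 40.2 CPM), against 38.6 to 41.9 CPM in the wild type of the nonsense set. It was 12.3 to 16.1 CPM in *qt9*, 17.81 to 19.7 CPM in *tm2700* and 35.7 to 43.5 in the rescued strain, against 25.9 to 27.7 in their wild type. Leaving out *jam113* replicate 3 moved the number of genes called over the whole table to 1370 in *jam113*, against 33 with all libraries, so log2 fold changes without it are also given for the 7 genes that still passed the filter (*ZK177.9* did not). Summed levels of 12 genes of the larval moult were 215 to 271 CPM in *jam113* and 213 to 269 CPM in its wild type, whereas the nonsense set lay between 624 and 839 CPM. In *jam113* against wild type, edgeR called 0 of the 12 moulting, 27 sperm, 14 oocyte, 10 germline and 6 yolk genes. DESeq2 called 2 oocyte genes, and at an unadjusted p under 0.05 edgeR had 1 moulting, 1 sperm, 2 oocyte and 1 yolk gene. Of all 16783 genes tested edgeR called 0.197%, and 12.7% had an unadjusted p under 0.05. In whole animals, fewer cells that express a gene and less RNA per cell cannot be told apart.

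The rarest of the 8 genes showed the widest separation in *jam113*. *ZK177.9* had 2.41, 2.44 and 1.61 CPM in *jam113* animals, against 0.0707, 0.0512 and 0.0376 CPM in wild type. These levels rested on 127, 146 and 121 estimated reads in *jam113* and on 5, 3 and 3 reads in wild type. All *jam113* libraries were above all wild-type libraries, and since every wild-type value was under 0.1 CPM the gene passed the filter on low counts only through *jam113*. Summed over the 3 libraries of each group, 394 reads in *jam113* and 11 in wild type gave a ratio of 38.9 after scaling to library totals. The fitted log2 fold change was 5.30 (SE 0.33).

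*C07G1.7* had 8.21, 9.12 and 7.44 CPM in *jam113*, against 0.311, 0.392 and 0.501 CPM in wild type. The groups did not overlap, and the reads behind them were 432, 546 and 559 in *jam113* and 22, 23 and 40 in wild type. The ratio of summed reads was 19.6, and the log2 fold change was 4.35 (SE 0.20), or 4.42 without *jam113* replicate 3.

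A pair of genes of moderate level was also separated in *jam113*. *T10D4.6* had 63.9, 69.3 and 67.7 CPM in *jam113*, against 17.5, 18.4 and 16.6 CPM in wild type. The replicates of each group lay close together and far from the other group, a 3.85-fold difference (log2 1.94, SE 0.07). The pseudogene *Y48G1BL.5* had 8.99, 9.70 and 9.65 CPM in *jam113*, against 2.74, 3.67 and 3.67 CPM in wild type. It too showed no overlap, with a 2.82-fold difference (log2 1.496, SE 0.14). Without *jam113* replicate 3 these log2 fold changes were 1.94 for *T10D4.6* and 1.49 for *Y48G1BL.5*.

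*Y20F4.4*, *C27C7.1* and *F15B9.10* showed smaller differences. *Y20F4.4* had 21.5, 21.1 and 22.5 CPM in *jam113*, against 12.7, 14.2 and 13.6 CPM in wild type (log2 0.69, SE 0.09). *C27C7.1* had 74.0, 75.6 and 69.5 CPM in *jam113*, against 47.9, 44.5 and 49.7 CPM in wild type (log2 0.63, SE 0.06). *F15B9.10* had 127, 128 and 122 CPM in *jam113*, against 96.2, 95.6 and 92.8 CPM in wild type (log2 0.41, SE 0.05). Without *jam113* replicate 3 these were 0.67 for *Y20F4.4*, 0.67 for *C27C7.1* and 0.44 for *F15B9.10*. The groups did not overlap for any of the 3 genes, and *F15B9.10* had the smallest log2 fold change among the 8 genes in absolute size.

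*F47D12.9* was the member that was lower in the deletion strain. It had 71.2, 77.2 and 82.4 CPM in *jam113*, against 206, 193 and 199 CPM in wild type. All *jam113* libraries were below all wild-type libraries, at 0.387 of the wild-type level (log2 -1.37, SE 0.06; -1.42 without *jam113* replicate 3). Across the fits that each lacked 1 library, the log2 change of *F47D12.9* ran from -1.42 to -1.31 and that of *C27C7.1* from 0.59 to 0.67. Over all 16783 genes tested in this comparison, 0.197% were called at an adjusted p under 0.05 by edgeR's quasi-likelihood test, 0.167% as higher and 0.0298% as lower. The 7 genes that were higher and the 1 that was lower were picked from this comparison, so their number says nothing beyond the choice. The median log2 fold change was 1.09 over the 8 genes and close to 0 over all genes tested.

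**Figure D1:**
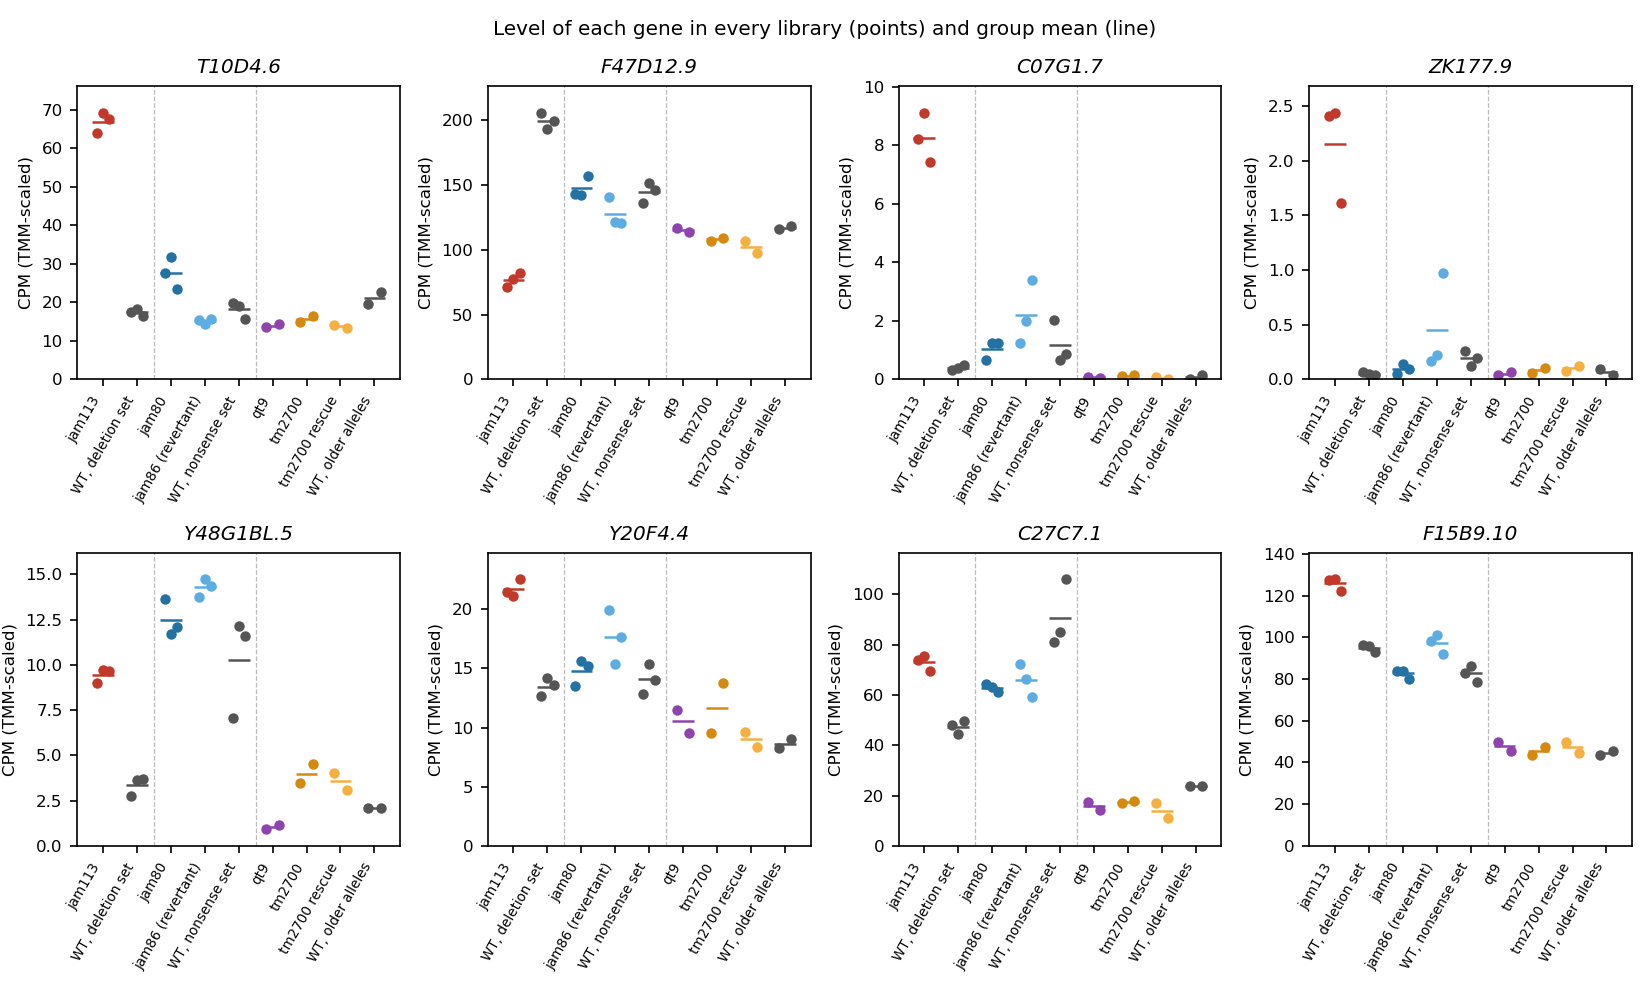
Level of each of the 8 genes in CPM (linear axis from 0, one panel per gene) in every library, with strains along the horizontal axis, points for libraries, short lines for group means and dashed lines between the 3 sets. In 6 panels the 3 *jam113* points lie outside all 20 other libraries, which follows in part from how the genes were picked. In the panels of *Y48G1BL.5* and *C27C7.1* other plate-grown strains reach or exceed them.

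Set against every other strain, *jam113* stood outside all 20 other libraries for 6 of the 8 genes. The genes were picked for a difference in *jam113*, so this number follows in part from the choice. The share of all genes with such a separation was not computed, and nothing is read from the number. For *T10D4.6* the lowest *jam113* library had 63.9 CPM and the highest other library 31.7 CPM, in *jam80*. For *C07G1.7* the lowest *jam113* library had 7.44 CPM and the highest other library, *jam86* replicate 3, had 3.38 CPM. For *ZK177.9* the lowest *jam113* library had 1.61 CPM and *jam86* replicate 3 had 0.971 CPM. *Y20F4.4* came closest, with 21.1 CPM in the lowest *jam113* library and 19.9 CPM in the highest other library, *jam86* replicate 1. *F15B9.10* had 122 CPM in the lowest *jam113* library and 101.003 CPM in the highest other library, again of *jam86*. For *F47D12.9* the highest *jam113* library had 82.4 CPM and the lowest other library 97.8 CPM, in the rescued strain.

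The order of the 9 strain means placed *jam113* first for *T10D4.6*, *C07G1.7*, *ZK177.9*, *Y20F4.4* and *F15B9.10* and last for *F47D12.9*. The same 6 genes had *jam113* outermost when the deposited TPM values were used. For *T10D4.6* the mean was 67.0 ± 2.75 CPM in *jam113*, and next in order stood *jam80* at 27.6 ± 4.15 CPM (SD, n = 3 each). For the other 4 genes on which *jam113* was highest, the next strain by CPM was *jam86*, with means of 2.21 ± 1.09 CPM for *C07G1.7*, 0.453 ± 0.449 for *ZK177.9*, 17.7 ± 2.27 for *Y20F4.4* and 97.1 ± 4.68 for *F15B9.10*. By TPM the wild type of the deletion set came next for *Y20F4.4*, at 13.8 TPM against 11.6 TPM in *jam86*. The same held for *F15B9.10*, at 73.7 TPM against 63.8 TPM in *jam86*. Lower in the order most neighbouring strains overlapped: for *Y20F4.4* only the step from *jam113* to *jam86* separated the libraries, and for *ZK177.9* only that step and the one from the wild type of the nonsense set to the rescued strain. Levels of *C07G1.7*, *C27C7.1* and *F15B9.10* were lower in all 8 older-allele libraries than in all 15 plate-grown libraries. In the older-allele set *C07G1.7* reached at most 0.152 CPM, *C27C7.1* at most 23.8 CPM and *F15B9.10* at most 50 CPM. Set, culture and library kit cannot be told apart for such differences.

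*Y48G1BL.5* and *C27C7.1* did not follow that pattern. *Y48G1BL.5* was highest in *jam86* (13.7, 14.7 and 14.3 CPM) and *jam80* (13.6, 11.7 and 12.1 CPM), and the wild type of the nonsense set had 7.07, 12.1 and 11.6 CPM. In CPM the mean of *jam113* was below those of these 3 groups, and its libraries lay within the range of that wild type. *C27C7.1* was highest in the wild type of the nonsense set, with 81.2, 85.0 and 106 CPM, and *jam113* ranked second. For both genes the wild type of the deletion set was the lowest group grown on plates.

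The wild types of the 2 plate-grown sets are the same strain, and their comparison shows how far the 8 genes varied between sets of the same *sid-1* genotype. The level of *sid-1* itself differed, at 51.2 ± 2.42 CPM in wild type of the deletion set and 40.8 ± 1.83 CPM in that of the nonsense set (SD, n = 3 each). Between them, 64.4% of 16757 genes tested were called by edgeR, 31% as higher and 33.4% as lower in the deletion set's wild type, so a difference between them is common. *Y48G1BL.5* had a mean of 3.36 ± 0.534 CPM in wild type of the deletion set and 10.3 ± 2.78 CPM in that of the nonsense set (log2 -1.61, SE 0.19). *C27C7.1* had 47.4 ± 2.65 CPM in wild type of the deletion set and 90.7 ± 13.4 CPM in that of the nonsense set (log2 -0.93, SE 0.09). *C07G1.7* (log2 -1.48, SE 0.38) and *ZK177.9* (log2 -1.77, SE 0.52) were also lower in the deletion set's wild type, without overlap. *F47D12.9* (log2 0.47, SE 0.07) and *F15B9.10* (log2 0.21, SE 0.06) were higher there, without overlap. The 2 wild types overlapped for *T10D4.6* (log2 -0.05, SE 0.10) and *Y20F4.4* (log2 -0.06, SE 0.10). These statements hold for CPM, and 2 of them differ by TPM. *Y20F4.4* had 13.3, 14.7 and 13.5 TPM in the deletion set's wild type and 9.15, 9.39 and 8.24 TPM in the other, without overlap. *C07G1.7* overlapped by TPM, at 0.580 to 0.978 TPM in the deletion set's wild type and 0.945 to 3.05 TPM in the other. No test is given, since these libraries took part in the choice of the genes.

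When *jam113* was set against the wild type of the nonsense set instead, the picture changed for 2 of the 8 genes. *Y48G1BL.5* overlapped between the groups (log2 -0.13, SE 0.18) and *C27C7.1* was lower in *jam113* (log2 -0.31, SE 0.10), the opposite side from its own wild type. *T10D4.6* (log2 1.88, SE 0.09), *Y20F4.4* (log2 0.62, SE 0.09) and *F15B9.10* (log2 0.60, SE 0.06) were higher by this yardstick too. *ZK177.9* (log2 3.51, SE 0.31) and *C07G1.7* (log2 2.85, SE 0.32) were higher by less than against their own wild type, and *F47D12.9* was lower (log2 -0.91, SE 0.07). In this comparison 55.9% of 16743 genes were called, 25.9% as higher and 30% as lower in *jam113*, and the *jam113* libraries are shared with the comparison above, so the values are a description. The set and the genotype cannot be told apart in it.

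**Figure D2:**
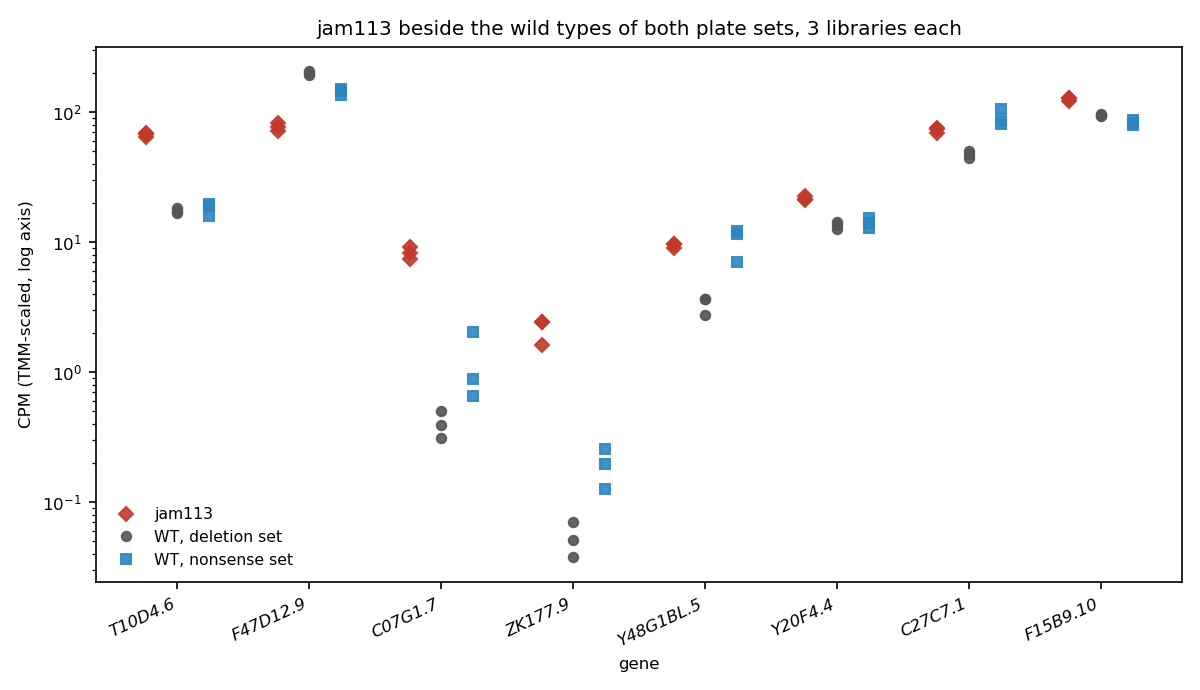
CPM of the 8 genes (vertical log axis) in *jam113*, the wild type of the deletion set and the wild type of the nonsense set, with 1 symbol per library and 3 libraries per group. The *jam113* symbols lie above both wild types for 5 genes and below both for *F47D12.9*, overlap the wild type of the nonsense set for *Y48G1BL.5*, and lie below it for *C27C7.1*.

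The 8 genes were tested in the nonsense and older-allele sets. Since genes that the study lists for both *jam113* and *jam80* are not among the 8, few calls in *jam80* follow in part from the choice, and nothing is read from their number. In *jam80*, 1 of the 8 genes was called against wild type by edgeR (quasi-likelihood test, p-values adjusted by Benjamini-Hochberg over all genes). Of all 16547 genes tested 0.0665% were called, 0.0363% as higher and 0.0302% as lower. *C27C7.1* fell to 64.3, 63.3 and 61.2 CPM in *jam80*, against 81.2, 85.0 and 106 CPM in wild type. The groups did not overlap, and the direction was opposite to that in *jam113* (log2 -0.53, SE 0.08, adjusted p = 0.0315 by edgeR). The call was lost without *jam80* replicate 2 (adjusted p = 0.128) or replicate 3 (adjusted p = 0.196), and held in the 7 alternatives that kept all libraries. *T10D4.6* had 27.6, 31.7 and 23.4 CPM in *jam80*, against 19.7, 19.02 and 15.8 CPM in wild type. All *jam80* libraries were above all wild-type libraries, but the gene missed the threshold (log2 0.60, SE 0.11, adjusted p = 0.0897 by edgeR). The threshold was passed in 4 of 7 alternatives that kept all libraries, with adjusted p-values from 6.7e-05 to 0.157, and also without *jam80* replicate 3 (adjusted p = 0.0199). Among the other 6 genes the log2 fold changes lay between -0.92 for *ZK177.9*, on 2 to 8 reads a library, and 0.27 for *Y48G1BL.5*.

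In the revertant *jam86*, 2 of the 8 genes were called against wild type, 1 higher and 1 lower. Of all 16629 genes tested 3.28% were called, 2.38% as higher and 0.896% as lower. *C27C7.1* fell to 72.4, 66.3 and 59.004 CPM in *jam86*, against 81.2, 85.0 and 106 CPM in wild type (log2 -0.45, SE 0.09, adjusted p = 0.0176 by edgeR). *F15B9.10* rose to 98.4, 101.003 and 91.9 CPM in *jam86*, against 83.0, 86.5 and 78.8 CPM in wild type (log2 0.24, SE 0.06, adjusted p = 0.0417 by edgeR). Neither pair of groups overlapped. At an unadjusted p under 0.05 there were 7 of the 8 genes, against 21.1% of all genes. Both calls were fragile: that of *C27C7.1* was lost without *jam86* replicate 3 (adjusted p = 0.126) or wild-type replicate 3 (adjusted p = 0.0691), and that of *F15B9.10* held without wild-type replicate 2 (adjusted p = 0.0472) and was lost without any other library of the comparison (adjusted p = 0.0594 to 0.176). *Y20F4.4* had 19.9, 15.4 and 17.6 CPM in *jam86*, against 12.87, 15.4 and 14.03 CPM in wild type, and was not called (log2 0.33, SE 0.10, adjusted p = 0.0850 by edgeR). Nor were *Y48G1BL.5* (log2 0.47, SE 0.15), *F47D12.9* (log2 -0.18, SE 0.07) and *T10D4.6* (log2 -0.26, SE 0.09). Their adjusted p-values by edgeR were 0.0901, 0.152 and 0.133. *T10D4.6* moved against its direction in *jam113*, the other genes of these 3 with it.

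*C07G1.7* and *ZK177.9* were uneven among the revertant libraries. *C07G1.7* had 1.24, 2.01 and 3.38 CPM in *jam86*, against 2.03, 0.654 and 0.883 CPM in wild type. *ZK177.9* had 0.165, 0.224 and 0.971 CPM in *jam86*, against 0.258, 0.127 and 0.196 CPM in wild type. In both genes *jam86* replicate 3 was the highest library of the set, with 122 and 35 reads, and the groups overlapped. Neither was called (log2 0.93, SE 0.38, adjusted p = 0.182 and log2 1.15, SE 0.63, adjusted p = 0.310 by edgeR). In *jam86* 12 of 27 sperm genes were called higher than in wild type, and the part that stage or germline composition has in these values was not tested.

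The revertant differed from its parent strain, the nonsense mutant, in 2 of the 8 genes, 1 higher and 1 lower. Of all 16602 genes tested 1.25% were called, 0.97% as higher and 0.277% as lower. *T10D4.6* fell to 15.3, 14.4 and 15.7 CPM in *jam86*, against 27.6, 31.7 and 23.4 CPM in *jam80*. The strains did not overlap, and the level was lower in the strain with the restored *sid-1* sequence (log2 -0.85, SE 0.10, adjusted p = 0.00104 by edgeR). This call held in all 7 alternatives that kept all libraries and in all 6 fits that left out 1 library, with a highest adjusted p of 0.0097. *F15B9.10* rose to 98.4, 101.003 and 91.9 CPM in *jam86*, against 84.0, 84.1 and 80.1 CPM in *jam80* (log2 0.24, SE 0.05, adjusted p = 0.0370 by edgeR). That call held in 5 of 7 alternatives that kept all libraries, and was lost without replicate 2 or 3 of either strain (adjusted p = 0.056 to 0.207). At an unadjusted p under 0.05 there were 7 of the 8 genes, against 18.8% of all genes. The libraries of each strain are shared among the 3 comparisons of the set, which are therefore not independent of each other. In *jam86* 4 of 27 sperm genes were called higher and 1 of 14 oocyte genes lower than in *jam80*. The part that stage or germline composition has in these differences was not tested.

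The older alleles, tested against their own wild type, called members only in the direction opposite to *jam113*, with 1 exception. In *qt9*, 2 of the 6 genes that passed the filter were called, both lower. Of all 18273 genes tested 1.84% were called, 1.03% as higher and 0.81% as lower. *C07G1.7* and *ZK177.9* were not tested there, at 2 and 2 reads in the *qt9* libraries for the first and 1 and 2 for the second. *C27C7.1* fell to 17.3 and 14.3 CPM in *qt9*, against 23.7 and 23.8 CPM in wild type (log2 -0.61, SE 0.14, adjusted p = 0.0249 by edgeR). *T10D4.6* fell to 13.6 and 14.3 CPM in *qt9*, against 19.6 and 22.7 CPM in wild type (log2 -0.61, SE 0.15, adjusted p = 0.0288 by edgeR). The groups did not overlap in either gene, but both calls were lost when either wild-type library was left out, where the log2 fold changes were -0.68 and -0.52 for *T10D4.6* and -0.58 and -0.62 for *C27C7.1*. Such fits leave 1 library in a group of the older-allele set, which is assumed to vary like the other group, and this holds for all values below that lack a library. *Y48G1BL.5* had 0.931 and 1.16 CPM in *qt9*, against 2.08 and 2.09 CPM in wild type, and did not pass (log2 -1.004, SE 0.29, adjusted p = 0.0719 by edgeR). In *qt9*, 4 of 6 yolk genes and 3 of 12 moulting genes were called higher than in wild type, with summed moulting levels of 487 to 524 CPM in *qt9* and 399 to 431 CPM in wild type. Their part in these results was not tested.

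In *tm2700*, 0 of the 8 genes were called against wild type by edgeR, limma-voom or DESeq2, where edgeR called 1.11% of all 18311 genes tested, 0.513% as higher and 0.601% as lower. At an unadjusted p under 0.05 there were 4 genes, *Y48G1BL.5*, *C27C7.1*, *T10D4.6* and *Y20F4.4*, against 10.6% of all genes. *Y48G1BL.5* had 3.45 and 4.53 CPM in *tm2700*, against 2.08 and 2.09 CPM in wild type, without overlap (log2 0.94, SE 0.20, adjusted p = 0.0551 by edgeR). *C27C7.1* had 17.1 and 17.83 CPM in *tm2700*, against 23.7 and 23.8 CPM in wild type (log2 -0.43, SE 0.10, adjusted p = 0.0716 by edgeR). *Y48G1BL.5* passed without *tm2700* replicate 1 (adjusted p = 0.00367), wild-type replicate 1 (0.00371) or wild-type replicate 2 (0.00233), and *C27C7.1* passed without either wild-type library (adjusted p = 0.0441 and 0.0157).

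The rescued strain had 3 of 7 genes called against wild type, 1 higher and 2 lower, and *C07G1.7* was not tested there. Of all 18297 genes tested 3.54% were called, 1.26% as higher and 2.28% as lower. *C27C7.1* fell to 16.999 and 10.9 CPM in the rescued strain, against 23.7 and 23.8 CPM in wild type (log2 -0.75, SE 0.15, adjusted p = 0.00159 by edgeR). *T10D4.6* fell to 14.2 and 13.5 CPM in the rescued strain, against 19.6 and 22.7 CPM in wild type (log2 -0.58, SE 0.14, adjusted p = 0.00825 by edgeR). *Y48G1BL.5* rose to 4.02 and 3.11 CPM in the rescued strain, against 2.08 and 2.09 CPM in wild type (log2 0.79, SE 0.22, adjusted p = 0.0388 by edgeR). The groups overlapped for none of the 3 genes. The *Y48G1BL.5* call was lost with limma-voom and DESeq2, over a range of adjusted p-values from 0.0135 to 0.250 in the 7 alternatives that kept all libraries, and held only without replicate 2 of the rescued strain (adjusted p = 0.026) among the fits that lacked a library. The *T10D4.6* call was lost without wild-type replicate 2 (adjusted p = 0.11) and that of *C27C7.1* without replicate 2 of the rescued strain (adjusted p = 0.0652). In the rescued strain 2 of 6 yolk genes were called higher, and 3 of 12 moulting genes and 1 of 14 oocyte genes lower, than in wild type, and 3 moulting genes were called higher in *tm2700* than in the rescued strain. Their part in these results was not tested.

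*tm2700* and its rescued strain differ by the transgene with *sid-1* and a *vps-45* minigene. The paper proposes that other differences, such as genetic background, obscure or distort *sid-1* effects among the older strains. Between *tm2700* and the rescued strain, 0 of the 8 genes were called by edgeR, limma-voom or DESeq2. Of all 18293 genes tested edgeR called 2.07%, 1.38% as higher and 0.694% as lower. At an unadjusted p under 0.05 there were 2 genes, *C27C7.1* (log2 0.31, SE 0.14) and *Y20F4.4* (log2 0.35, SE 0.15), against 14.1% of all genes. *T10D4.6* had 14.8 and 16.5 CPM in *tm2700*, against 14.2 and 13.5 CPM in the rescued strain (log2 0.15, SE 0.13, adjusted p = 0.653 by edgeR). *F47D12.9* had 107 and 109 CPM in *tm2700*, against 107 and 97.8 CPM in the rescued strain (log2 0.05, SE 0.11, adjusted p = 0.896 by edgeR). With 2 libraries a group, a miss of the threshold does not show that the strains were alike. The 4 comparisons of the older-allele set share libraries, so their calls are not independent.

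Set against wild type, the calls in the direction seen in *jam113* were *F15B9.10* in *jam86* and *Y48G1BL.5* in the rescued strain, both of which carry wild-type *sid-1*. *Y48G1BL.5* also lay wholly above wild type in *tm2700*, a *sid-1* deletion, without passing the threshold. Its log2 fold change there was 0.94 (SE 0.20), against 0.79 (SE 0.22) in the rescued strain. *T10D4.6* also lay in that direction in *jam80*, wholly above wild type without passing the threshold, and it was called higher in *jam80* than in the revertant, but it was called lower in *qt9* than in wild type. *F47D12.9*, the gene that was lower in *jam113*, had log2 fold changes over wild type of 0.03 (SE 0.06) in *jam80*, -0.04 (SE 0.10) in *qt9* and -0.10 (SE 0.07) in *tm2700*. In *jam86* it was lower by log2 -0.18 (SE 0.07) than in wild type and by -0.20 (SE 0.06) than in *jam80*. Both were called only without *jam86* replicate 1 (adjusted p = 0.0368 and 0.0157 by edgeR). For *Y20F4.4* the log2 fold changes over wild type were 0.07 (SE 0.09) in *jam80*, 0.26 (SE 0.17) in *qt9* and 0.44 (SE 0.17) in *tm2700*, with adjusted p-values by edgeR of 0.909, 0.493 and 0.346.

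**Figure D3:**
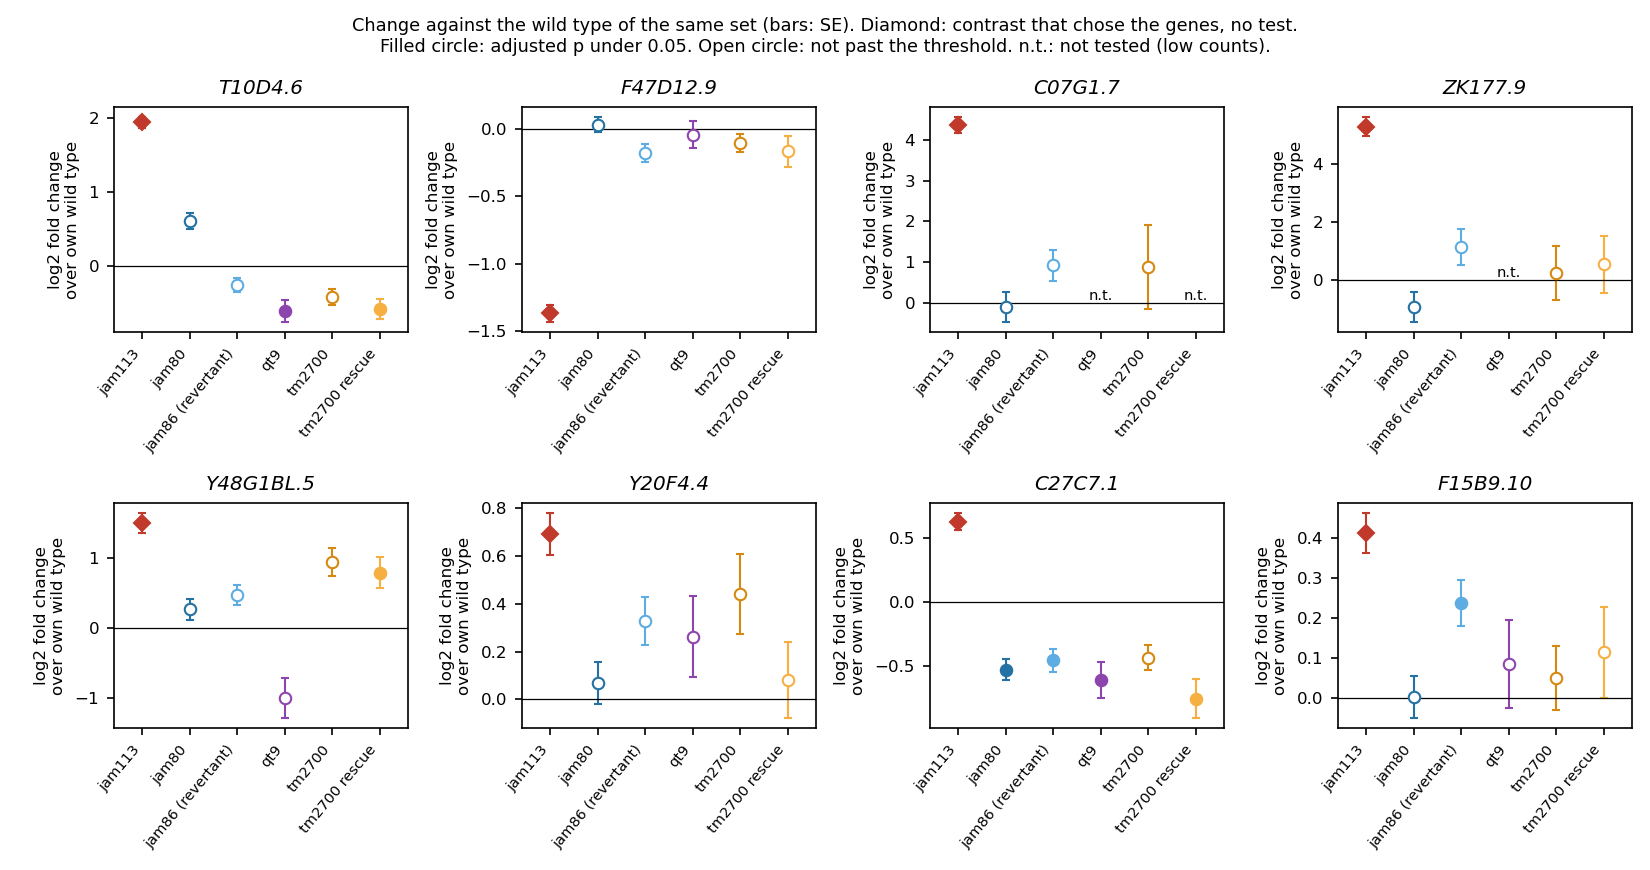
Log2 fold change of each gene over the wild type of its own set (vertical axis, bars SE, scale set per panel) in 6 strains. Diamonds mark *jam113*, the comparison the genes were picked from, filled circles mark adjusted p under 0.05, open circles other values, and n.t. genes under the filter. *C27C7.1* lies above 0 in *jam113* and below 0 in the other 5 strains, of which 4 passed the threshold, and *T10D4.6* lies below 0 in *jam86* and all 3 older strains.

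The transcripts of a gene were compared by their share of the gene's TPM, as estimated by salmon for each library. *T10D4.6b.1* made up at least 98.0% of *T10D4.6* in *jam113* and at least 99.4% in its wild type. For *F15B9.10*, the share of *F15B9.10a.1* was 73.3 to 75.4% in *jam113* and 73.7 to 78.9% in wild type. For *Y20F4.4*, the short transcript *Y20F4.4b.1* (654 nt, against 2324 nt of *Y20F4.4a.1*) took 80.7 to 84.3% in *jam113* and 77.7 to 83.7% in wild type. Both transcripts of *Y20F4.4* were higher on average in *jam113*, *Y20F4.4b.1* at 18.7 TPM against 11.1 TPM in wild type and *Y20F4.4a.1* at 4.05 TPM against 2.77 TPM in wild type. The shares overlapped between the groups for *F15B9.10* and *Y20F4.4*.

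*F47D12.9* was lower in *jam113* in each of its main transcripts. *F47D12.9a.1* had a mean of 21.8 TPM in *jam113* and 54.0 TPM in wild type, and *F47D12.9b.1* had 8.90 TPM in *jam113* and 31.1 TPM in wild type. The share of *F47D12.9b.1* was 24.7 to 28.2% in *jam113* and 32.1 to 38.9% in wild type, without overlap. In the nonsense set the same gene was assigned otherwise: *F47D12.9b.1* was listed at 0 in all 9 libraries, and *F47D12.9a.3*, listed at 0 in the deletion set, took 51.9 to 59.8% in *jam80* and 37.95 to 59.7% in wild type. The share of *Y20F4.4b.1* was likewise lower in the nonsense set, at 49.8 to 57.5% in *jam80* and 59.9 to 71.5% in wild type. Levels of single transcripts of these genes therefore do not compare between sets, and sums per gene were used for all other values.

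**Figure D4:**
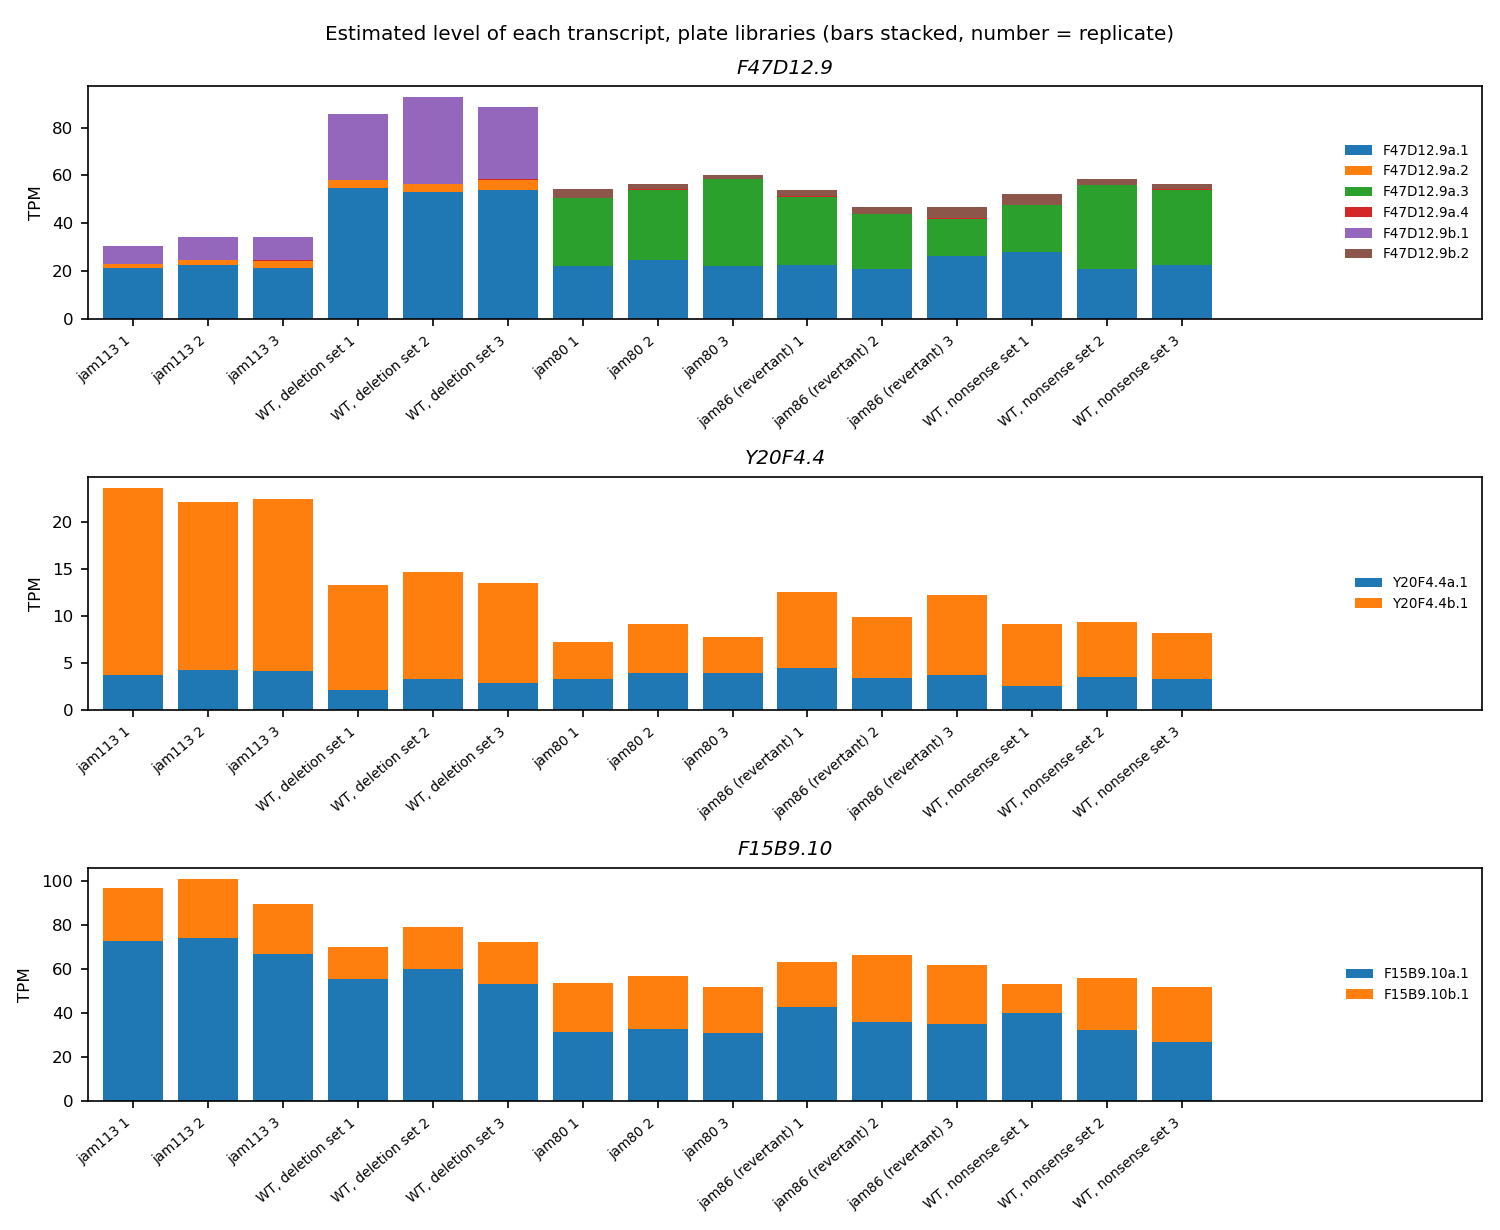
TPM of each transcript (stacked bars, 1 bar per library, linear axis from 0) of *F47D12.9*, *Y20F4.4* and *F15B9.10* in the 15 plate-grown libraries. The bars of *F47D12.9* are lowest in *jam113*, and its second main transcript is *F47D12.9b.1* in the deletion set but *F47D12.9a.3* in the nonsense set.

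Genes beside the 8 loci were examined for changes in *jam113*. Of the 32 protein-coding neighbours, 2 on either side of each locus, 27 passed the filter and 0 were called in *jam113* by edgeR or limma-voom. Of all genes tested edgeR called 0.197%, so 0 calls do not show that the neighbours were unchanged. DESeq2 called 2, and 6 had an unadjusted p under 0.05 by edgeR, against 12.7% of all genes. Their log2 fold changes ranged from -0.46 to 1.65, with a median of 0.08. The highest was *far-4*, which encodes a fatty acid and retinol binding protein and lies 7310 bp from *F15B9.10*, beyond *inft-2* (0.349 CPM in *jam113*, 0.103 CPM in wild type, adjusted p = 0.268 by edgeR). *srh-71*, a chemoreceptor gene 322 bp from *T10D4.6*, had 0.659 ± 0.0732 CPM in *jam113* and 0.247 ± 0.0616 CPM in wild type (log2 1.42, SE 0.27, n = 3 each, adjusted p = 0.0997 by edgeR). *svh-1*, a growth factor-like gene that spans *C07G1.7* on the other strand, had 1.38 CPM in *jam113* and 0.722 CPM in wild type (log2 0.94, SE 0.25, adjusted p = 0.190 by edgeR). It shares 0 exon bases with *C07G1.7*. The overlaps of *F47D12.9* with *F47D12.3*, *ZK177.9* with *ZK177.3* and *F15B9.10* with *inft-2* covered 45, 62 and 18 exon bases, all on opposite strands. *ZK177.3* reached at most 0.0798 CPM in *jam113*. *inft-2* had 95.4 to 105 CPM in *jam113* and 89.0 to 102 CPM in wild type. In the older-allele set, whose kit does not mark strand, reads of such partners cannot be told apart.

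Likeness among the genes was measured as Pearson's r of log2 CPM over the 23 libraries, each gene centred on the mean of its set. Over the 21 pairs of the 7 genes that were higher in *jam113*, the median r was 0.555, and *F47D12.9* had a median r of -0.77 with them. This follows from the choice of the genes. Outside the deletion set, over 17 libraries, the median r of the 21 pairs was 0.105, with a range from -0.51 to 0.596. The highest there was between *Y20F4.4* and *F15B9.10*, and *C07G1.7* with *ZK177.9* had r = 0.483. *T10D4.6* had negative r with *F15B9.10* (-0.51) and *ZK177.9* (-0.49), and *F47D12.9* with *ZK177.9* had r = -0.71. Libraries of a set share their preparation and depth, and no test was made of these values.

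**Figure D5:**
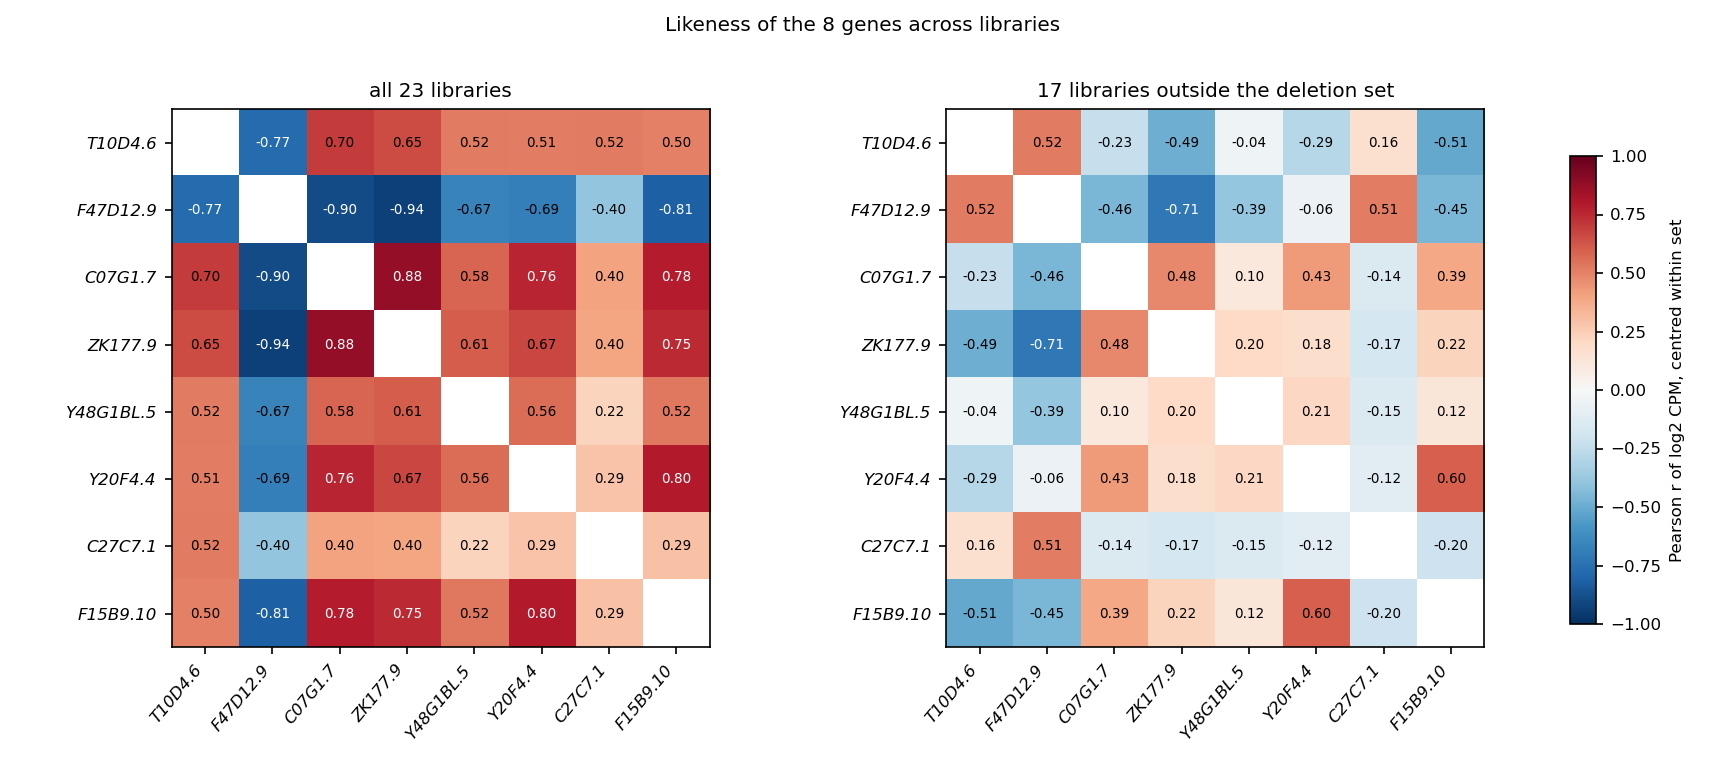
Pearson's r between the 8 genes (colour and number in each cell) over all 23 libraries on the left and over the 17 libraries outside the deletion set on the right, each gene centred within its set. With the deletion set the 7 genes that were higher in *jam113* all have positive r with each other and negative r with *F47D12.9*, and without it signs are mixed and the median r of the 21 pairs is 0.105.

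The genes outside the group that varied most like each member over the 23 libraries were named by rank of r. *F14F9.5*, which lies next to *sid-1*, was first or second for *T10D4.6* (r = 0.841), *C07G1.7* (r = 0.885) and *ZK177.9* (r = 0.883), with 31.3 ± 2.15 CPM in *jam113* and 3.78 ± 0.198 CPM in its wild type. *sid-1* itself was first for *F47D12.9* (r = 0.891), followed by *lys-4*, a lysozyme gene (r = 0.889). *lys-4* had 97.8 ± 43.4 CPM in *jam113* and 249 ± 21.2 CPM in wild type. *C18D4.6* was first for *C07G1.7* (r = 0.923). The other genes in second place were *cyp-36A1*, a cytochrome P450, for *T10D4.6* (r = 0.820) and *gst-4*, a glutathione S-transferase, for *ZK177.9* (r = 0.862).

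For *Y48G1BL.5* the most similar gene was *Y48G1BL.8* (r = 0.855), which is also its nearest protein-coding neighbour, 597 bp away on the opposite strand. *Y48G1BL.8* had 1.09 ± 0.223 CPM in *jam113* and 0.673 ± 0.0809 CPM in its wild type, and 0.193 ± 0.00101 CPM in *qt9* and 0.545 ± 0.0341 CPM in the wild type of the older-allele set. It was not called in either comparison (adjusted p = 0.246 and 0.145 by edgeR). The second gene was *twk-5*, a potassium channel gene (r = 0.848). For *F15B9.10* the first gene was the entry *F07B7.2* (r = 0.876), to which the loci *W09B7.2* and *F07B7.2* both belong in the table of genes, and the second was *Y69H2.9* (r = 0.852). *F07B7.2* had 18.8 ± 4.72 CPM in *jam113* and 1.34 ± 0.0810 CPM in its wild type. It had 8.71 ± 0.589 CPM in *jam80* and 22.9 ± 4.78 CPM in *jam86*, against 3.67 ± 0.322 CPM in the wild type of the nonsense set. The paper names this gene *sdg-1* and reports it as higher in *jam113*, *jam80* and *jam86*. *Y20F4.4* was most like *osg-1* (r = 0.804) and *Y59C2A.3* (r = 0.803), and *C27C7.1* most like *K08D9.9* (r = 0.802) and *H11L12.1* (r = 0.801).

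These ranks include the *jam113* libraries that the members were picked on, and most of them changed without the deletion set. Over the 17 other libraries, *C18D4.6* (r = 0.795) and *Y48G1BL.8* (r = 0.921) were again first for *C07G1.7* and *Y48G1BL.5*, and no other member kept either of its 2 genes. There *pdha-1*, a pyruvate dehydrogenase subunit gene, was first for *F47D12.9* (r = 0.937), *cat-4* for *T10D4.6* (r = 0.752) and *Y105C5A.14* for *ZK177.9* (r = 0.855). *F14F9.5*, *sid-1* and *lys-4* were among the first 2 genes of no member there, nor by Spearman's rho over all 23 libraries.

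Other genes of RNAi were counted in the same comparisons from a list of 51 genes without *sid-1*, which includes Dicer, Argonautes and RNA-dependent RNA polymerases. In *jam113*, *jam80* and *qt9* against wild type, and in *jam86* against *jam80*, edgeR called 0 of the 51 in either direction. Of all genes it called 0.197%, 0.0665%, 1.84% and 1.25% in these comparisons. At an unadjusted p under 0.05 edgeR had 2 of the 51 in *jam113*, 0 in *jam80*, 15 in *qt9* and 20 in *jam86* against *jam80*. The shares of all genes there were 12.7%, 6.28%, 15.2% and 18.8%. DESeq2 called 2 in *jam113*, 0 in *jam80*, 1 in *qt9* and 7 in *jam86* against *jam80*, and limma-voom called 1 in the last of these and 0 in the others. In *jam86* against wild type 3 fell, the Argonaute gene *sago-2* (log2 -0.46, SE 0.11), the germ granule gene *meg-3* (log2 -0.26, SE 0.06) and the histone methyltransferase gene *set-25* (log2 -0.37, SE 0.08), with adjusted p-values by edgeR of 0.0314, 0.0343 and 0.0233. There edgeR called 3.28% of all genes, and DESeq2 called 6 of the 51. At an unadjusted p under 0.05 edgeR had 19 of the 51, against 21.1% of all genes. *sago-2* rose to 6.52 ± 0.254 CPM in *tm2700*, against 2.20 ± 0.435 CPM in wild type (n = 2 each, log2 1.59, SE 0.17, adjusted p = 0.00217 by edgeR). *sago-2* (log2 1.05) and *meg-3* (log2 0.46) rose in *tm2700* relative to the rescued strain, with adjusted p-values by edgeR of 0.000367 and 0.0277, and *meg-3* fell in the rescued strain relative to wild type (log2 -0.51, adjusted p = 0.0126). No member of the 8 was called in *tm2700* in either of its comparisons.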

How the data were processed

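Per the submitters' processing notes, the authors used cutadapt, Salmon and the ce11 build, which is WBcel235, and versions are not given in the sources used here. The deposited values are Salmon's estimated counts for each transcript, without normalization and with decimals, and TPM, the authors' abundance of a transcript relative to all transcripts after adjustment for effective length. TPM served for transcript shares and for 1 alternative. Genes were taken from the Ensembl release 115 annotation (the authors used release 101), in which 31176 of 35749 transcripts were found by identifier and 4485 by sequence name. The remaining 88 stayed under their own names. Estimated counts were summed into 21982 genes and rounded.

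The 8 genes, the gene lists and the tests were chosen with earlier results of these data known. Each pair of groups was fitted alone with edgeR 4.0.16 (quasi-likelihood test, TMM, R 4.3.3) on genes over 0.1 CPM in at least 3 of the libraries compared (2 in the older-allele set), with Benjamini-Hochberg adjustment over all genes tested and calls at an adjusted p under 0.05. Members were tested in 7 comparisons that exclude the deletion set, of which *jam80* against wild type also bore on their choice. Each SE is the log2 change divided by the square root of the F statistic. Alternatives were limma 3.58.1 with voom (the study's test), DESeq2 1.42.0, upper-quartile scaling, no filter, filterByExpr, a joint fit of the whole set, TPM, likeness by Spearman's rho or in the plate-grown libraries, the replicate number as a block, and leaving out 1 library at a time. Likeness outside the deletion set and the interactions between sets were added after seeing the data. Likeness used log2 CPM with a prior count of 2. The tests were tried on simulated counts. Besides the members, the genes named are *sid-1*, the 2 genes most like each member, neighbours called in *jam113* and RNAi genes called in a comparison, and neighbours that were not called were named after their values were seen. Replicate libraries differed by 5.01 to 124 in chi-square per degree of freedom over 19 pairs (genes with at least 10 reads), so none was counted as a copy. The *jam113* replicates differed most, at 45.1, 69.6 and 124, against at most 25.0 in any other group. Near-identical sequences could share reads, and no check of this was made. The genes first in likeness without the deletion set were also named after their values were seen. Sequences were not used here.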

Additional observations from a re-analysis of the deposited data

Results flagged for a closer look

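The differences between a strain and its wild type were compared between sets. *T10D4.6* differed between *jam80* and each older strain, with differences of log2 fold change, older strain minus *jam80*, of -1.22 for *qt9* (SE 0.18, adjusted p = 0.00513), -1.04 for *tm2700* (SE 0.18, adjusted p = 0.0126) and -1.21 for the rescued strain (SE 0.17, adjusted p = 0.000721), by edgeR's interaction term, where 0.237%, 0.606% and 2.98% of all genes were called. All *jam80* libraries were above their wild type and all libraries of the 3 older strains were below theirs. *Y48G1BL.5* differed between *qt9* and *jam86*, with a difference of -1.48 (SE 0.34, adjusted p = 0.0404 by edgeR, 1.57% of all genes called). These interactions were chosen after the data were seen, and the sets differ in library kit and reads.

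Of the 8 genes, 3 lay wholly above wild type in *jam113* and wholly below it in strains of other sets, and these differences were not tested because the genes were picked from the *jam113* comparison. The older-allele groups held 2 libraries each, so a separation there rests on few values. The share of all genes with such a pattern was not computed, and nothing is read from the number. For *C27C7.1*, the log2 fold change in *jam113* exceeded that in *jam80* by 1.16, in *jam86* by 1.08, in *qt9* by 1.24, in *tm2700* by 1.06 and in the rescued strain by 1.38. For *T10D4.6* it exceeded that in *jam86* by 2.20, in *qt9* by 2.56, in *tm2700* by 2.36 and in the rescued strain by 2.53. For *Y48G1BL.5* it exceeded that in *qt9* by 2.50.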

How the results depend on the processing

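Of the 8 genes, 1 was called in *jam80* against wild type, and 2 were called with DESeq2, no filter, all samples of the set or the replicate block (0 to 1 with a library left out). In *jam86* against wild type 2 were called, with 0 to 3 when a library was left out. In *jam86* against *jam80* 2 were called, and 1 with all samples or the block (1 to 5 with a library left out). In *qt9* 2 were called, 1 with upper-quartile scaling or all samples and 0 with the block (0 to 3). In *tm2700* against wild type 0 were called, 2 without the filter and 1 with all samples or the block (0 to 3). In the rescued strain 3 were called (1 to 2 with a library left out), and against it *tm2700* had 0 (0 to 1). Replicate numbers did not pair the libraries: deviations of same-numbered libraries correlated at -0.06 to 0.27 over all pairs, so calls that change with the block are not read as weaker effects. The median likeness of 0.555 was 0.759 in plate-grown libraries and 0.105 outside the deletion set. With all libraries kept, 1 log2 fold change turned sign, that of *C07G1.7* in *jam80*, which was -0.09 and 0.062 with limma-voom. With a library left out, values near 0 that turned sign ran from -0.41 to 0.48 for *C07G1.7*, -0.023 to 0.036 for *F15B9.10* and -0.015 to 0.063 for *F47D12.9* in *jam80*, and in *tm2700* against wild type from -0.0058 to 0.10 for *F15B9.10*, -0.16 to 5.05 for *C07G1.7* (the remaining wild-type library held 0 reads) and -0.23 to 0.57 for *ZK177.9*. Against the rescued strain they ran from -0.61 to 0.011 for *ZK177.9* and -0.064 to 0.33 for *Y48G1BL.5*. Between the wild types of the deletion and nonsense sets they ran from -0.13 to 0.016 for *T10D4.6* and -0.12 to 0.015 for *Y20F4.4*, and for *Y48G1BL.5* in *jam113* against the nonsense wild type from -0.33 to 0.012. The cause was not tested.

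Over all genes, calls in *jam113* numbered 33, and 584 with DESeq2, 77 without the filter, 21 with upper-quartile scaling and 11 with the block. In *jam80* 11 became 34 with DESeq2, 28 without the filter, 17 with all samples and 21 with the block. In *jam86* 545 became 925 with DESeq2, and against *jam80* 207 became 565 with DESeq2, 472 without the filter and 88 with the block. In *qt9* 336 became 759 without the filter and 150 with upper-quartile scaling, and in *tm2700* 204 became 403 without the filter. In the rescued strain 648 became 399 with DESeq2, and in *tm2700* against it 379 became 234 with DESeq2, 611 without the filter and 191 with all samples. Outside *jam113*, *ZK177.9* rested on 1 to 35 reads a library, and *C07G1.7* in the older-allele set on 0 to 4, which limits what could be detected for both.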
